A study of Rattus norvegicus with 26 samples.

Results

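The keratins Krt8, Krt18, Krt7, Krt19, Krt5 and Krt14 and the desmosomal genes Dsp, Pkp2, Jup and Dsg2 were followed while rat multipotent adult progenitor cells (rMAPCs) were cultured with TGFβ1 and PDGF-BB, a treatment used to commit them to smooth muscle cells (SMCs). These were 10 of the 35287 gene names on the array and had 14 of its 41012 gene probes, found by the name that the array gives to each probe. They were chosen by name with earlier results of these data in view, and for each gene the probe with the highest mean log2 intensity over all 26 arrays was selected. All 10 selected probes were among the 24442 tested probes, those that the scanner software marked as well above background throughout 1 or more of the 9 groups. The Krt5 probe was so marked in 3 groups, Cl19 on d2 and d6 and 3c3 on d2.

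rMAPCs are cultured bone marrow cells that can give rise to several tissues. The 2 lines, Cl19 and 3c3, were Oct4-expressing clones from the bone marrow of female Fischer rats, aged 3 weeks for Cl19 and embryonic day 18 for 3c3. RNA was taken on d0, from undifferentiated cells, and on d2, d4 and d6 of culture in serum-free basal rMAPC medium with both growth factors. There were 3 arrays per line and day. No array held cells kept to d2, d4 or d6 without the factors. Changes from d0 therefore cannot be told apart from those of medium, plating and time in culture. Each line is 1 clone, so that its replicates are repeat samples of that clone and p-values measure the spread between them. Another 2 arrays carried purchased rat aortic RNA, which the study's methods describe as primary aortic SMCs. The labels and the methods name different suppliers, and nothing separates these 2 arrays as independent cultures. Of 9 smooth muscle markers on the array, 9 were well above background on both of these arrays, against 0 of 8 endothelial markers. Also well above background on both were 7 of 8 fibroblast, 6 of 13 primitive and visceral endoderm and 3 of 7 leukocyte markers. The count was 1 of 13 for simple epithelium, 1 of 9 for stratified epithelium and 1 of 6 for mesothelium.

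Keratins are the intermediate filament proteins of epithelial cells, and each filament needs a type I chain (Krt18, Krt19, Krt14) paired with a type II chain (Krt8, Krt7, Krt5). Krt8 and Krt18 are the pair of simple, single-layered epithelia, Krt7 and Krt19 are added in ducts and other lining epithelia, and Krt5 and Krt14 form the pair of the basal layer of stratified epithelia. Desmosomes are the junctions that anchor these filaments: the cadherin Dsg2 binds the neighbouring cell, Jup (plakoglobin) and Pkp2 (plakophilin) bind the cadherin tails, and Dsp (desmoplakin) ties that plaque to the keratin filament. Differentiated vascular smooth muscle mainly builds its intermediate filaments from vimentin and desmin.

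Between 43.2% and 61.4% of gene features were well above background on an array, and none was saturated. The 4 days of each replicate of a line were on 1 slide, and Cl19, 3c3 and the primary RNA each had 1 scan day of their own. Differences in level between lines, or against the primary RNA, therefore cannot be told apart from the scan day, while changes over time lie within slides. On each line slide d0, d2, d4 and d6 held positions 1, 2, 3 and 4, so that day and position cannot be told apart. The array labelled Cl19 d2 replicate 1 was nearer to the 3c3 d2 arrays (root mean square log2 distance of 0.382 to 0.538) than to the other Cl19 d2 arrays (0.876 and 0.917). Counts of calls by d2 and the d2 results of Krt7 are therefore given with and without it. Other d2 values include it unless stated.

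In the rat genome Krt8 and Krt18 are neighbours on chromosome 7, with no protein-coding gene between them in RefSeq, and 26 such genes separate Krt8 from Krt7. Krt19 and Krt14 lie on chromosome 10 with 1 gene between them, and Jup follows after another 7. The sequence before the gene start was read for the 6 genes found in the RefSeq promoter table (assembly GRCr8): Krt8, Krt18, Krt5, Dsp, Jup and Dsg2. Bases 250 to 71 before the start are shown for the Krt8 and Krt18 pair and for the 3 desmosomal genes, as the stretch in which transcription factor motifs were searched. Each is written 5′ to 3′ on the gene's strand, and capitals mark CAGGTG or its reverse complement CACCTG, the E-box bound by Zeb and Snail factors. The positions are chr7:135010410-135010589 (minus strand) for Krt8, chr7:135035918-135036097 (plus) for Krt18, chr17:26877192-26877371 (minus) for Dsp, chr10:85827500-85827679 (minus) for Jup and chr18:12121037-12121216 (plus) for Dsg2.
Krt8: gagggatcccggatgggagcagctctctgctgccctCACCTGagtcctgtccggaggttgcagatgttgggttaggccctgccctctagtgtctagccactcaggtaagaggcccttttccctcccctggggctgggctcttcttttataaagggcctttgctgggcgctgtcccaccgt
Krt18: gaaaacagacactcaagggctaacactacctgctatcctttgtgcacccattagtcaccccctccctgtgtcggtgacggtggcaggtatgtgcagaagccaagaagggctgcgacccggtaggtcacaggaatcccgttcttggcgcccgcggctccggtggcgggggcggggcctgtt
Dsp: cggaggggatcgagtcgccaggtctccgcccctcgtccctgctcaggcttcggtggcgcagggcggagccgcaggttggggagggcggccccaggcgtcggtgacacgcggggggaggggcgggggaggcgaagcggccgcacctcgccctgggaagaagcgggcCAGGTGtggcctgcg
Jup: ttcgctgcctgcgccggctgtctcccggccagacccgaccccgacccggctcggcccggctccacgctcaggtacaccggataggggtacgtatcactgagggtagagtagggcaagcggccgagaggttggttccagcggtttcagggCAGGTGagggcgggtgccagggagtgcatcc
Dsg2: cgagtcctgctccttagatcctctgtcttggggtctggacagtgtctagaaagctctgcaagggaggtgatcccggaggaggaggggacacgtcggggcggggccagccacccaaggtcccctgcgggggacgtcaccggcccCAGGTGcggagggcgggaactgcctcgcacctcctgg

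CAGGTG was in 5 of the 6 stretches, those of Krt8, Krt5, Dsp, Jup and Dsg2, and in 12.0% of the 33469 stretches of the same length in the table. Of the other motifs searched on both strands, CAGAC was in 3 of 6 (33.9% of all), GGGCGG in 4 of 6 (21.0%), GCCNNNGGC in 2 of 6 (8.6%), TATAAA in 1 of 6, that of Krt8 (9.0%), and TGANTCA in 0 of 6 (4.7%). These counts describe letters in a window of 180 bases and were not tested.

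On d6 all 10 genes were higher than on d0 in Cl19, and 8 of the 10 were higher in 3c3, where Krt5 and Krt14 did not pass the test. Over all tested probes, 22.0% were called higher on d6 in Cl19 and 19.7% in 3c3, and 13.2% were called higher in both lines, as 8 of the 10 genes were. No member was called lower in either line. The median d6 change of the 10 genes was 2.50 on the log2 scale in Cl19 and 1.71 in 3c3, beside −0.20 and −0.21 over all tested probes. The lowest d6 array exceeded the highest d0 array for 10 of 10 genes in Cl19 (25.7% of all tested probes) and for 8 of 10 in 3c3 (22.3%). Each test came from limma over all tested probes with Benjamini-Hochberg adjustment.

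**Figure D1:**
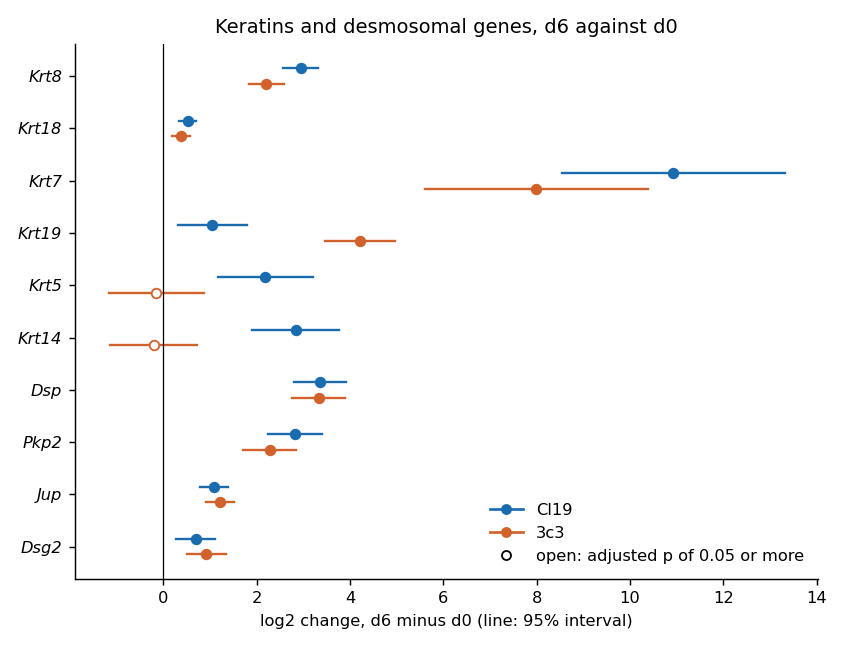
Log2 change from d0 to d6 of the selected probe of each gene in Cl19 (blue) and 3c3 (orange), with its 95% interval from the limma fit; open points did not pass an adjusted p of 0.05. Krt7 changed most in both lines, and Krt5 and Krt14 in 3c3 are the only open points, at −0.15 and −0.20.

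Krt8 and Krt18 were already expressed on d0. Krt8 (probe at chr7:140716967-140717949 on rn4, the build of the array's annotation) gave log2 intensities of 12.86, 12.68 and 12.65 in Cl19 on d0 and of 15.54, 15.67 and 15.82 on d6. In 3c3 the values went from 12.19, 12.48 and 12.60 to 14.63, 14.51 and 14.76. The d0 and d6 arrays did not overlap in either line, and the rise was 2.95 in Cl19 (SE 0.18, adjusted p = 1.6e-10, 7.72-fold) and 2.21 in 3c3 (SE 0.18, adjusted p = 1.2e-08, 4.62-fold). Most of it was present by d2, when the mean change had reached 68.6% of the d6 change in Cl19 and 92.4% in 3c3. The change differed between the lines by 0.74 with an adjusted p of 0.050, which did not pass, and of 0.015 with the slide as a replicate block, which did.

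Krt18, the partner of Krt8, had the smallest rise of the selected probes. Its values on d0 were 16.99, 17.01 and 16.90 in Cl19 and 16.97, 16.96 and 17.06 in 3c3. On d6 they were 17.47, 17.50 and 17.50 in Cl19 and 17.37, 17.36 and 17.41 in 3c3. The change was 0.52 in Cl19 (adjusted p = 6.6e-05) and 0.38 in 3c3 (adjusted p = 0.0017), with all of it reached by d2 in Cl19 and 89.1% in 3c3. With arrays scaled to their 75th percentile in place of quantile normalization these changes were 0.22 and 0.08 and neither passed (adjusted p = 0.22 and 0.70). The values stood close to the highest normalized value, 18.06, which quantile normalization makes the same on every array.

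A second Krt18 probe rose by more. It went from 16.14, 15.96 and 15.81 to 17.55, 17.57 and 17.75 in Cl19, a change of 1.65 (SE 0.14, adjusted p = 7.2e-09). In 3c3 it went from 16.03, 15.90 and 15.95 to 17.33, 17.10 and 17.30, a change of 1.28 (SE 0.14, adjusted p = 3.4e-07). Both probes therefore gave a rise, of unlike size. The array's annotation places them on chromosomes 2 and 10, not beside Krt8, so that near-identical copies of Krt18 elsewhere in the genome could add to either signal. The other genes with several probes gave like values: Dsp rose by 3.24 and 3.30 on its second probe, and Pkp2 by 2.90 and 2.58 on its second, in Cl19 and 3c3. Another Pkp2 probe rose by 3.36 in Cl19, where 2 of 3 d0 arrays were well above background, and at least 3.64-fold in 3c3, where none was.

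**Figure D2:**
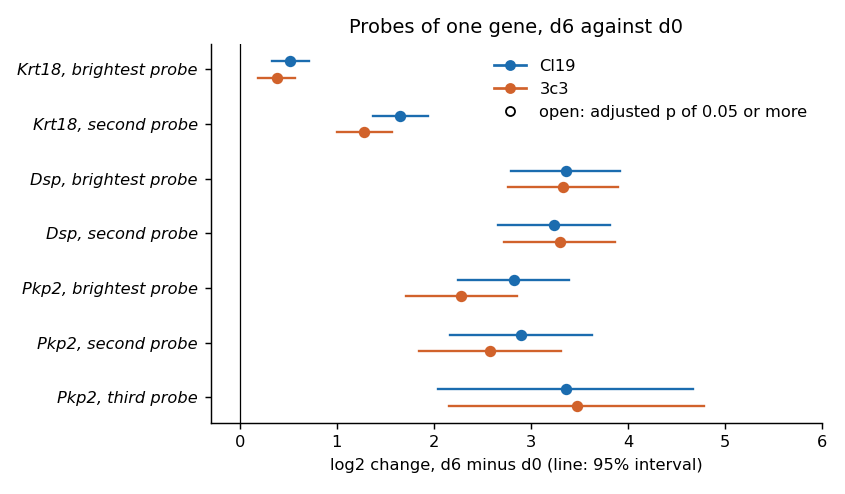
Log2 change from d0 to d6 for each probe of Krt18, Dsp and Pkp2 in Cl19 (blue) and 3c3 (orange), with 95% intervals. The brightest Krt18 probe moved by 0.52 and 0.38 and the second by 1.65 and 1.28, while the intervals of the Dsp probes and of the Pkp2 probes overlap.

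Krt7 (chr7:140175626-140175685), the type II keratin of ducts and other lining epithelia, had the largest change of the 10 genes in both lines. In Cl19 its log2 intensity was 4.52, 4.63 and 5.12 on d0 and 15.45, 16.01 and 15.59 on d6, a rise of 10.93 (SE 1.14, adjusted p = 1.6e-07). In 3c3 it was 4.74, 3.76 and 4.02 on d0 and 13.29, 11.03 and 12.17 on d6, a rise of 7.99 (SE 1.14, adjusted p = 1.2e-05). All of these arrays were well above background, and each slide gave a rise of at least 10.47 in Cl19 and 7.28 in 3c3. On d4 the values were 13.67, 14.77 and 14.62 in Cl19 and 10.14, 8.16 and 9.85 in 3c3.

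The d2 arrays of Cl19 disagreed on Krt7. Replicates 2 and 3 gave 12.90 and 12.61 and replicate 1 gave 6.00, a value inside the 3c3 range of 5.85 to 6.71 on the same day. With that array the Cl19 change by d2 was 5.75 (adjusted p = 0.0010) and without it 8.00 (adjusted p = 7.5e-09). The SE of that change was 1.14 with the array and 0.567 without. The difference between the lines in the d6 change, 2.93, had an adjusted p of 0.26 with the array and 0.0062 without it. The difference in the d4 change, 4.39, went from 0.079 to 2.5e-04, and that in the d2 change from 3.58 (adjusted p = 0.62) to 5.83 (adjusted p = 2.2e-04). On d6 itself Krt7 was higher in Cl19 than in 3c3 by 3.52 (adjusted p = 0.025).

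Krt19 (chr10:89081437-89081496), the type I keratin that accompanies Krt7 in lining epithelia, rose further in 3c3 than in Cl19. In 3c3 it went from 10.26, 9.81 and 10.09 on d0 through 12.16, 12.53 and 12.73 on d2 to 13.93, 14.26 and 14.44 on d4, and stayed at 13.83, 14.44 and 14.54 on d6. In Cl19 it went from 10.74, 10.61 and 10.67 through 13.32, 11.93 and 12.91 on d4 to 11.88, 12.37 and 10.93 on d6. The d6 change was 4.22 in 3c3 (SE 0.36, adjusted p = 2.1e-08) and 1.06 in Cl19 (SE 0.36, adjusted p = 0.018). The Cl19 change did not pass without Cl19 d6 replicate 1 (0.98, adjusted p = 0.055), without replicate 2 (0.73, adjusted p = 0.12), or with scaling to the 75th percentile (0.73, adjusted p = 0.097). The lines differed in the change by d4 (−2.11, adjusted p = 0.0071) and by d6 (−3.16, SE 0.50, adjusted p = 1.7e-04), with Cl19 the lower. Krt7 and Krt19 thus stood in opposite order on d6, with Krt7 higher in Cl19 and Krt19 higher in 3c3, where Cl19 was lower by 2.54 (adjusted p = 2.0e-05).

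Krt5 and Krt14, the basal keratins, were dim and rose late, in Cl19. Krt14 (chr10:89144454-89145130) read 4.22, 4.09 and 4.50 in Cl19 on d0, 3.78, 3.73 and 4.41 on d4, and 6.09, 8.22 and 7.01 on d6. Its rise from d4 to d6 was 3.13 (adjusted p = 2.8e-04) and from d0 to d6 2.84 (SE 0.45, adjusted p = 2.4e-05, 7.14-fold). The 3c3 values were 4.41, 3.72 and 4.97 on d0 and 4.01, 3.69 and 4.80 on d6, and the groups overlapped. Their change was −0.20 with a 95% interval from −1.14 to 0.73 (adjusted p = 0.74). The difference between the lines, 3.04, passed (SE 0.63, adjusted p = 0.0019).

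Krt5 read 3.47, 1.96 and 3.46 in Cl19 on d0 and 5.13, 5.67 and 4.64 on d6, and its d0 value of 1.96 and the d4 values of 2.39 and 2.03 were not well above background. It rose from d4 to d6 by 2.54 (adjusted p = 0.0031) and from d0 to d6 by 2.18 (SE 0.49, adjusted p = 8.4e-04). In 3c3 it read 2.34, 3.23 and 3.90 on d0 and 3.41, 2.90 and 2.69 on d6, with 1 array of either day not well above background, a change of −0.15 with an interval from −1.17 to 0.87. The difference between the lines, 2.34, passed (adjusted p = 0.022) but did not pass without the slide of 3c3 replicate 3, with 43.2% to 51.8% of features well above background (1.81, adjusted p = 0.18), nor on leaving out Cl19 d0 replicate 2 (1.83, adjusted p = 0.075), Cl19 d6 replicate 2 (2.07, adjusted p = 0.060), 3c3 d0 replicate 3 (1.96, adjusted p = 0.072) or 3c3 d6 replicate 3 (2.18, adjusted p = 0.056). The Krt5 probe has no position in the array's annotation.

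**Figure D3:**
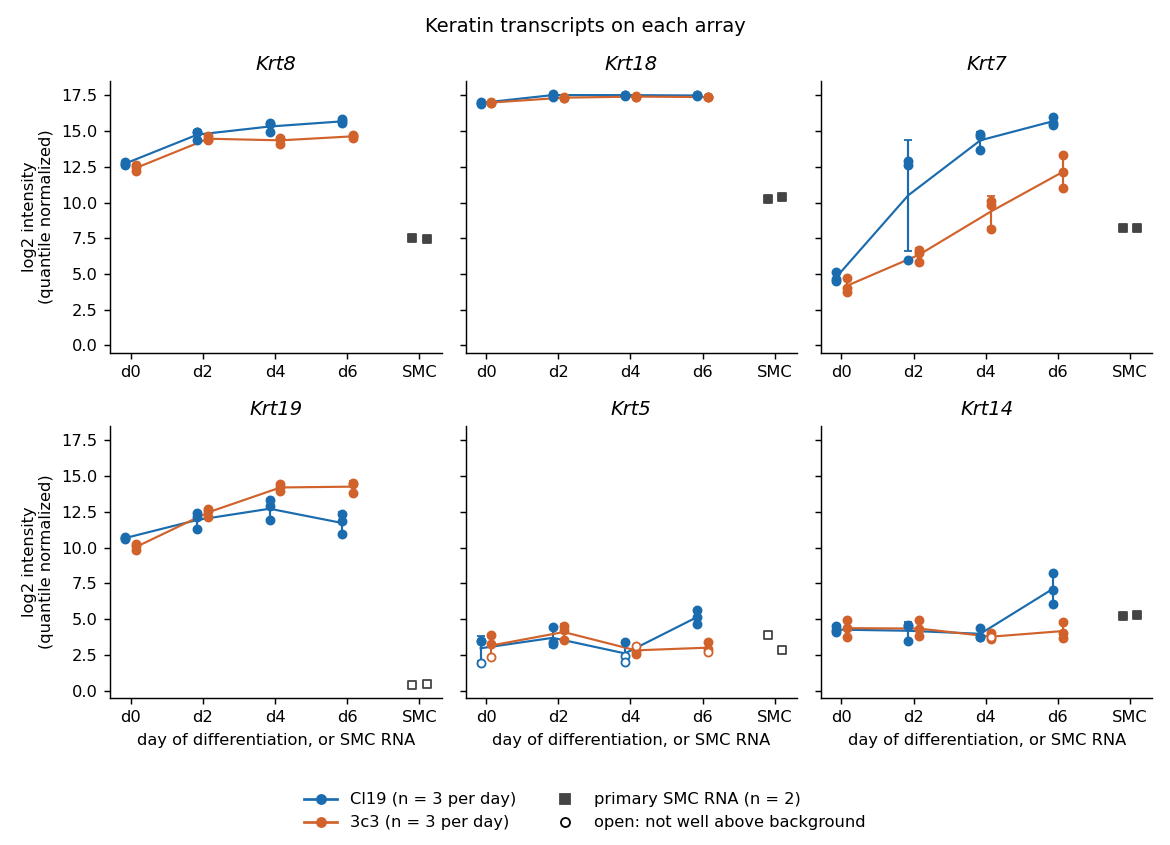
Quantile-normalized log2 intensity of the 6 keratins on each array by day in Cl19 (blue) and 3c3 (orange) and on the 2 arrays of primary SMC RNA (squares); lines join means, bars are SD (n = 3), and open points were not well above background. Krt7 climbs from under 5.2 on d0 to between 11.03 and 16.01 on d6, the low Cl19 d2 point of Krt7 is replicate 1, and Krt5 and Krt14 lift on d6 in Cl19.

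Among the desmosomal plaque genes, Dsp, whose protein links keratin filaments to the junction, rose in both lines. In Cl19 (probe at chr17:32848997-32849056) it went from 10.62, 10.39 and 10.43 on d0 through 11.85, 12.61 and 12.72 on d2 and 13.70, 13.75 and 13.73 on d4 to 13.49, 13.95 and 14.07 on d6. In 3c3 it went from 10.60, 9.75 and 10.18 through 12.13, 11.39 and 11.87 on d2 and 12.52, 12.14 and 12.59 on d4 to 13.58, 13.64 and 13.30 on d6. The d6 change was 3.36 in Cl19 (SE 0.27, adjusted p = 5.4e-09, 10.2-fold) and 3.33 in 3c3 (SE 0.27, adjusted p = 1.2e-08). The difference of 0.03 had a 95% interval from −0.77 to 0.83. In Cl19 the later part of the rise fell between d2 and d4 (1.33, adjusted p = 0.0018) and in 3c3 between d4 and d6 (1.09, adjusted p = 0.014). Without Cl19 d2 replicate 1 that step in Cl19 was 1.06 (adjusted p = 0.016).

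Pkp2 (chr11:86584291-86584350), an armadillo-repeat protein of the same plaque, read 9.23, 9.09 and 9.11 in Cl19 on d0, 12.60, 12.18 and 12.61 on d4 and 12.18, 11.87 and 11.85 on d6. In 3c3 it read 8.09, 7.99 and 8.13 on d0, 10.36, 9.65 and 9.91 on d2, 9.34, 8.84 and 9.32 on d4 and 10.52, 10.29 and 10.25 on d6. The d6 changes were 2.82 (SE 0.27, adjusted p = 6.0e-08) and 2.28 (SE 0.27, adjusted p = 1.5e-06). On d4 the lines parted: the change from d0 was larger in Cl19 by 2.22 (SE 0.39, adjusted p = 5.7e-04), and by d6 the difference was 0.54 (adjusted p = 0.42). Pkp2 was the member whose d0 level differed between the lines, with Cl19 higher by 1.07 (adjusted p = 0.034), which did not pass when any 1 of the 6 d0 arrays was left out or with normexp background correction, without the filter on dim probes or with the slide as a random block.

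Jup, which sits in both desmosomes and adherens junctions, rose from a level already present at the start. Its probe (chr10:89308299-89308358) read 12.64, 12.65 and 12.53 in Cl19 on d0 and 13.76, 13.87 and 13.46 on d6. In 3c3 it read 12.70, 12.43 and 12.56 on d0 and 13.51, 13.93 and 13.88 on d6. The rise was 1.09 (SE 0.14, adjusted p = 2.3e-06) and 1.21 (SE 0.14, adjusted p = 1.1e-06), that is 2.13-fold and 2.32-fold, with no overlap of d0 and d6 arrays.

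Dsg2 (chr18:12364344-12364403), the desmosomal cadherin, was called higher on d6 and on no earlier day. Its values in Cl19 were 6.44, 6.29 and 6.54 on d0, 6.49, 6.60 and 6.90 on d4 and 7.12, 7.20 and 7.04 on d6. In 3c3 they were 6.54, 5.74 and 6.08 on d0, 6.28, 5.56 and 6.29 on d4 and 7.18, 6.99 and 6.95 on d6. The change by d6 was 0.70 in Cl19 (SE 0.20, adjusted p = 0.0061) and 0.92 in 3c3 (SE 0.20, adjusted p = 8.2e-04), and neither line had passed by d4. The step from d4 to d6 passed in 3c3 (1.00, adjusted p = 0.0038) and not in Cl19 (0.46, adjusted p = 0.20). Dsg2 was, with Krt5 and Krt14, the member not called by d4 in either line.

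**Figure D4:**
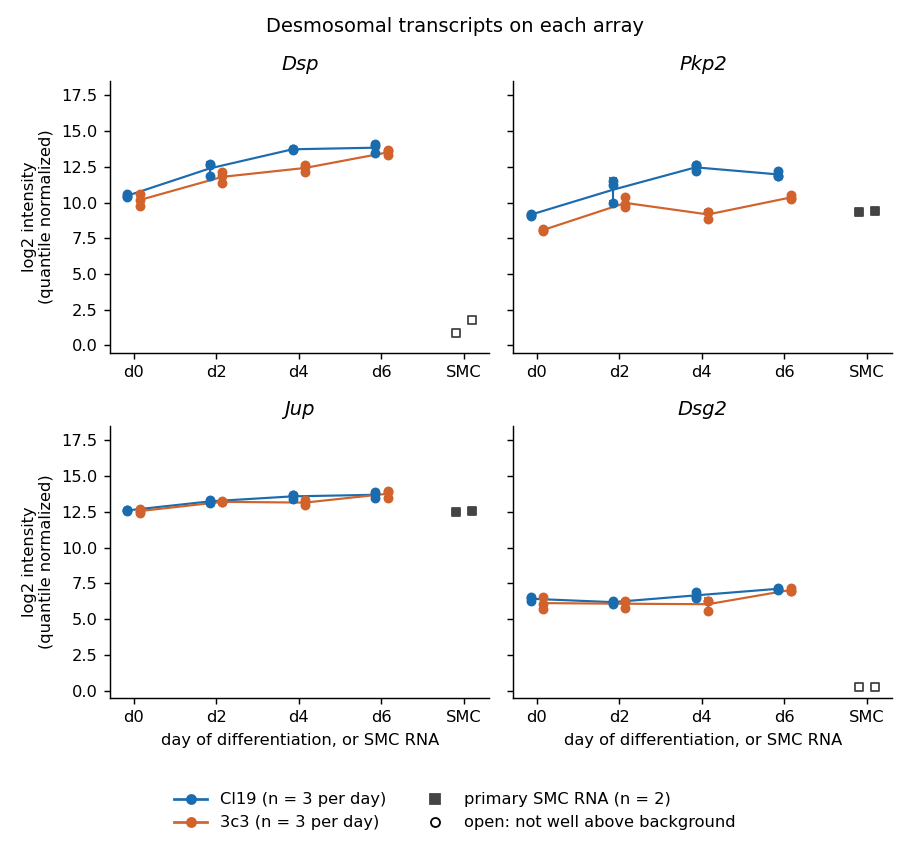
Quantile-normalized log2 intensity of Dsp, Pkp2, Jup and Dsg2 on each array by day in Cl19 (blue) and 3c3 (orange) and on the 2 arrays of primary SMC RNA (squares); lines join means, bars are SD (n = 3), and open points were not well above background. Dsp and Pkp2 rise most, Pkp2 of the lines is apart on d4, and Dsp and Dsg2 are open points in the primary SMC RNA.

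The calls by interval gave the order of the changes. By d2 the genes higher than on d0 were Krt8, Krt18, Krt7, Krt19, Dsp, Pkp2 and Jup in Cl19, 7 of 10 (11.2% of all tested probes), and the same list without Krt7 in 3c3, 6 of 10 (9.80%). Without Cl19 d2 replicate 1 the Cl19 count was 6, since Krt19 did not pass (1.04, adjusted p = 0.061). By d4 it was 7 of 10 in each line (20.2% and 14.8%). From d2 to d4, Krt8, Krt7, Dsp and Pkp2 rose in Cl19 (4 of 10, beside 9.34%) and Krt19 in 3c3 (1 of 10, beside 4.33%). Without Cl19 d2 replicate 1, Krt8 (0.39, adjusted p = 0.19) and Krt7 (1.60, adjusted p = 0.076) did not pass in that interval. From d4 to d6, Krt5 and Krt14 rose in Cl19 (2 of 10, beside 3.44%) and Dsp, Pkp2, Jup and Dsg2 in 3c3 (4 of 10, beside 5.91%). Of these 4, Dsp, Pkp2 and Jup had already been called higher by d2 in 3c3, and Dsg2 had not.

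The change differed between the lines for 3 of the 10 genes on d6 (17.4% of all tested probes), Krt5 and Krt14 with the larger rise in Cl19 and Krt19 with the larger rise in 3c3. Without Cl19 d2 replicate 1 it was 5 of 10, with Krt8 and Krt7 added, both larger in Cl19. The share of all tested probes on d6 in that fit is not given, so that this count cannot be set against the 17.4%. By d4 the change differed for 2 genes, Pkp2 and Krt19 (14.4%). Without Cl19 d2 replicate 1 Krt7 also differed by d4 (4.39, adjusted p = 2.5e-04), with no share over all tested probes given. By d2 the change differed for 0 (0.323%), or for 1, Krt7, without that array (3.50% of all tested probes in that fit). On d0 the lines differed in level for 1 gene, Pkp2 (3.07%), and on d6 for 6, with Krt8, Krt7, Krt5, Krt14 and Pkp2 higher in Cl19 and Krt19 lower (29.1%). These level differences lie between scan days. For Krt18, Dsp, Jup and Dsg2 the differences between the lines in the d6 change were 0.14 (95% interval −0.13 to 0.41), 0.03 (−0.77 to 0.83), −0.12 (−0.54 to 0.30) and −0.22 (−0.81 to 0.37).

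Against the purchased SMC RNA, all 10 genes were higher in Cl19 on d6 and 8 of 10 in 3c3 on d6. The share of all tested probes called lower in the primary RNA was 38.6% and 38.1%. The median difference of the 10 genes, primary RNA minus d6, was −7.02 for Cl19 and −5.37 for 3c3, beside −0.13 over all tested probes in either case. With the 4 members that were not well above background in the primary RNA set at their bounds, the medians were −5.26 and −3.61. In these bulk samples fewer cells of a type and less RNA per cell cannot be told apart. P-values against the primary RNA use a spread pooled over all 26 arrays. The 2 primary arrays may be technical repeats, so that the spread between primary cultures may not be measured.

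The primary SMC RNA had no signal well above background for 4 of the 10 genes. Of all gene features, 43.6% and 44.5% were well above background on these 2 arrays. Dsp read 0.87 and 1.79 there, a level at least 1071-fold below Cl19 on d6 and 851-fold below 3c3 on d6 (adjusted p = 7.9e-18 and 1.2e-17). Krt19 read 0.41 and 0.44 and was at least 248-fold and 1443-fold higher on d6. Dsg2 read 0.24 and 0.25 and was at least 10.2-fold and 9.62-fold higher. Each bound sets the d6 mean against the lowest signal that was well above background on the same primary arrays, averaged over both, or the probe's own value where that was higher. Krt5, at 3.90 and 2.81, was the fourth, with a bound of at least 2.59-fold against Cl19 on d6 (adjusted p = 0.0066), and that test did not pass without primary replicate 2 (adjusted p = 0.12) or with 75th percentile scaling (adjusted p = 0.056).

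The other genes were detected in the primary RNA on both arrays. Krt8 read 7.55 and 7.46 and was 288-fold and 139-fold lower than in Cl19 and 3c3 on d6, and Krt18, at 10.28 and 10.37, was 143-fold and 133-fold lower. The second Krt18 probe, at 8.77 and 8.94, was 435-fold and 335-fold lower. Krt7 read 8.19 and 8.24, above every d0 array of both lines and below every d6 array (lower by 7.47 against Cl19, adjusted p = 3.2e-05, and by 3.95 against 3c3, adjusted p = 0.0095). Pkp2, at 9.33 and 9.39, was lower than on d6 by 2.61 and 0.99 (adjusted p = 2.7e-07 and 0.0069), and Jup, at 12.53 and 12.54, by 1.17 and 1.24. Jup thus had a level in the SMC RNA near its d0 values. Krt14, at 5.25 and 5.26, was below Cl19 on d6 by 1.85 (adjusted p = 0.0027) and above 3c3 on d6 by 1.09, which did not pass (adjusted p = 0.058) but did without 3c3 d6 replicate 3 (1.40, adjusted p = 0.025).

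The other keratins were mostly undetected. Of 46 listed, 24 were on the array and 7 were tested, and on d6 Cl19 had 6 of these higher and 1 lower, while 3c3 had 4 higher and 1 lower. Of all tested probes, 30.3% were lower on d6 in Cl19 and 28.6% in 3c3. Krt20, a type I keratin of gut and urothelial lining, went from no signal well above background on d0 to means of 8.61 in Cl19 and 11.85 in 3c3 on d6, at least 73.5-fold and 580-fold higher (adjusted p = 5.3e-08 and 7.5e-10), and the lines differed (adjusted p = 0.023), in a test that uses d0 values below background, as do those of Krt17, Ppl, Synm and Tp63 that follow. Krt12, best known from the corneal epithelium, rose by 3.95 in Cl19, where 1 of 3 d0 arrays measured it, and at least 76.4-fold in 3c3, where none did. Krt17, a keratin of basal and injured epithelium, rose in Cl19, at least 20.8-fold (adjusted p = 9.1e-07), and was not called in 3c3 (well above background on 0 of 3 d0 and 2 of 3 d6 arrays, adjusted p = 0.13), and the lines differed (adjusted p = 0.0028). Krt4, of internal stratified epithelia, fell below background in both lines, at least 9.13-fold in Cl19 and 1.25-fold in 3c3. The list was written with earlier results of these data known.

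Of 16 other desmosomal genes, 8 were tested, and in each line 6 were higher and 1 was lower on d6. Perp, a tetraspan membrane protein needed for desmosome assembly, rose by 4.41 and 2.03 (adjusted p = 7.7e-09 and 1.3e-04), more in Cl19 (difference 2.38, adjusted p = 0.0026). Dsc2, the desmocollin partner of Dsg2, rose by 2.04 and 1.11, and Ctnna1 (alpha-catenin, of adherens junctions) by 1.59 and 1.41. Pkp4, an armadillo protein of cell borders, fell by 1.03 in Cl19 and by 2.66 in 3c3 (adjusted p = 0.0042 and 3.1e-07). In the primary SMC RNA Perp and Dsc2, like Dsp and Dsg2, were not well above background.

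Hemidesmosomes fix keratin filaments to the basement membrane. Of 8 hemidesmosome and plakin genes tested, d6 brought 4 up and 3 down in Cl19, and in 3c3 4 up and 0 down. The shares over all tested probes were 22.0% up and 30.3% down in Cl19, and 19.7% up and 28.6% down in 3c3. Itgb4, the integrin chain that binds keratin through plectin, rose by 5.65 and 6.28 (adjusted p = 1.4e-09 and 6.3e-10). Its partner Itga6 fell by 1.66 in Cl19 and rose by 1.11 in 3c3 (difference −2.77, adjusted p = 0.0020). Ppl (periplakin) rose at least 39.9-fold in Cl19 and was not called in 3c3, with 0 of 3 d0 and 1 of 3 d6 arrays well above background (adjusted p = 0.44, and 1.3e-04 for the difference between the lines). The tetraspanin Cd151 rose by 1.17 and 1.62.

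The intermediate filaments of mesenchymal cells did not move as 1 group. Of 9 genes tested, Cl19 had 4 up and 3 down on d6, and 3c3 had 3 up and 3 down. All tested probes gave 22.0% up and 30.3% down in Cl19, and 19.7% up and 28.6% down in 3c3, so that the counts down were near that share. Vim (vimentin), named here after its values were seen since it is the main filament of smooth muscle and fibroblasts, fell by 1.45 and 0.70 (adjusted p = 8.5e-05 and 0.031) and stood at 16.31 in the SMC RNA, above its d6 means of 12.23 and 12.55. Des (desmin), the muscle filament, rose by 3.52 and 2.32 (adjusted p = 1.8e-05 and 0.0015), Prph (peripherin) by 4.79 and 3.10, and Nes (nestin) by 2.07 and 1.58. Synm (synemin), a muscle filament protein, rose in Cl19, at least 42.5-fold, and was not called in 3c3, with 0 of 3 d0 and 1 of 3 d6 arrays well above background (adjusted p = 0.66, and 1.4e-05 for the difference between the lines). The d6 means of Des, 7.82 and 7.50, were not called different from the 6.57 of the SMC RNA (adjusted p = 0.071 and 0.17).

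Of 23 tested transcription factors known to act on keratin and junction genes, Cl19 had 9 up and 5 down on d6, and 3c3 had 4 up and 3 down. Over all tested probes 22.0% were up and 30.3% down in Cl19, and 19.7% up and 28.6% down in 3c3. Tp63, the p63 factor of basal epithelium and a known regulator of Krt5 and Krt14, went from no signal well above background on d0 to a mean of 9.72 on d6 in Cl19, at least 165-fold higher (adjusted p = 1.4e-10). The 3c3 arrays measured it above background on 0 of 3 d0 arrays and 1 of 3 d6 arrays, which bounds its rise at 1.1-fold or more (adjusted p = 0.0023). The lines differed (adjusted p = 4.1e-06). Grhl2, an activator of epithelial junction genes, rose by 7.16 in Cl19 (2 of 3 d0 arrays well above background, adjusted p = 3.2e-05) and changed by 2.14 in 3c3 (adjusted p = 0.14), a difference of 5.02 (adjusted p = 0.038). In 3c3 the Grhl2 means were 3.23 on d0 and 5.37 on d6, and the arrays of these days did not overlap. The pooled spread behind these tests includes Cl19 d2, with an SD of 3.79. No Grhl2 value without Cl19 d2 replicate 1 is given. Zeb1, a repressor that binds the E-box shown in capitals above, fell by 2.93 and 2.74 (adjusted p = 9.1e-09 and 4.0e-08), from means of 5.94 and 6.36 on d0, and stood at 9.29 in the SMC RNA. Tfap2e, an AP-2 family factor, fell at least 707-fold in Cl19, and in 3c3 it fell by 7.38, with 2 of 3 d6 arrays well above background.

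**Figure D5:**
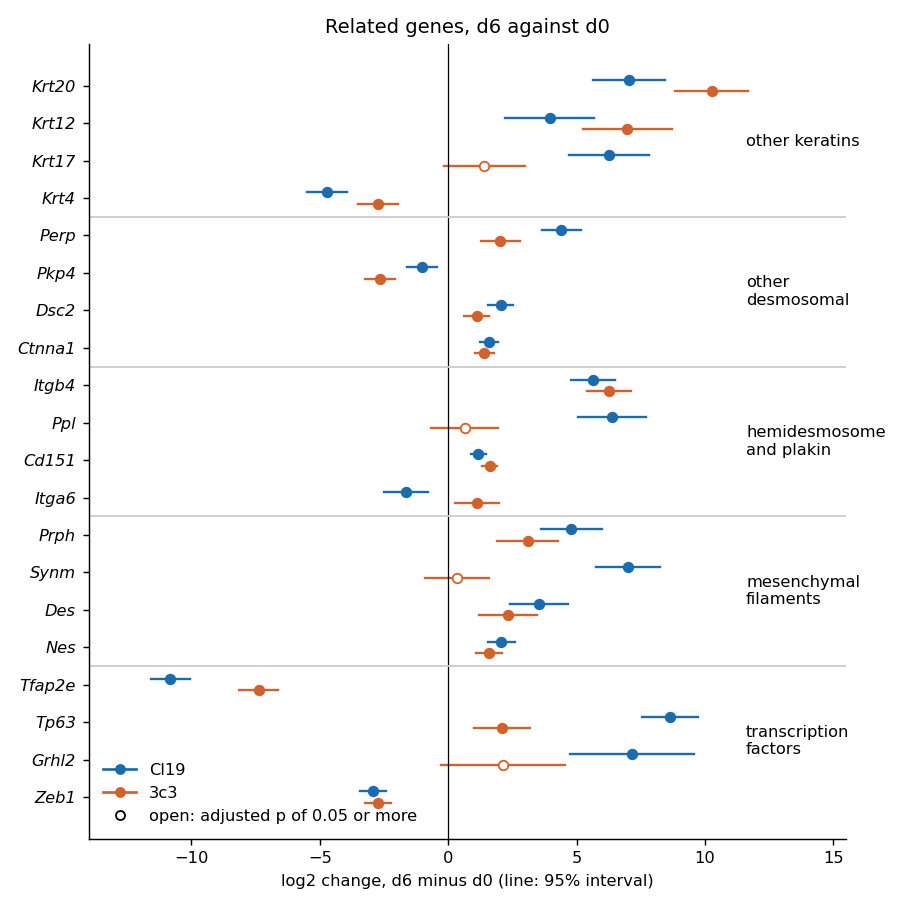
Log2 change from d0 to d6 in Cl19 (blue) and 3c3 (orange), with 95% intervals, as fitted, also where a group had no array well above background, for up to 4 genes of each related list that had the largest mean absolute change among those past the threshold in at least 1 line; open points did not pass. Krt20, Itgb4 and Perp rose in both lines, Zeb1 and Tfap2e fell in both, and Krt17, Ppl, Synm, Tp63 and Grhl2 lie further right in Cl19.

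Markers of simple epithelium that are not keratins moved with the 10 genes. Of 13, 12 were tested, of which 12 were higher on d6 in Cl19 and 10 in 3c3, among them Cdh1 (E-cadherin, 3.28 and 4.02), Cldn7 (5.71 and 6.03), Cldn4 (6.82 and 4.74) and Epcam (2.87 and 2.16). The log2 of their summed signal ranged from 12.77 to 12.92 on d0 and from 16.77 to 16.88 on d6 in Cl19, from 12.55 to 12.78 and from 15.93 to 16.13 in 3c3, and from 6.57 to 6.81 in the SMC RNA, where 1 of 13 was well above background on both arrays. Of 9 smooth muscle markers, Cl19 had 5 up and 0 down in the same arrays, and 3c3 had 6 up and 1 down (Myocd, −1.20). Tagln rose by 6.54 and 5.95 and Cnn1 by 3.56 and 2.67, while Mylk and Synpo2 passed in neither line. Of 13 primitive and visceral endoderm markers, Cl19 had 9 down and 3 up, and 3c3 had 6 down and 3 up. Of 13 stratified epithelium markers, 3 were tested, all higher in Cl19 (Tp63, Pkp1 and Krt15) and 1 in 3c3 (Tp63), while Krt1, Krt10, Krt13, Ivl, Dsg3 and Dsc3 were not above background throughout any group. In Cl19, 1 stratified marker was well above background on every d0 array and 3 on every d6 array, so that the filter itself favoured rises. Of 3 tested mesothelial markers 2 rose in each line, and of 7 tested fibroblast markers Cl19 had 4 up and 1 down and 3c3 had 1 up and 2 down. Of 6 tested endothelial markers Cl19 had 0 up and 3 down and 3c3 had 1 up and 1 down. Of 4 tested leukocyte markers 1 rose in Cl19 and 2 in 3c3, where their log2 summed signal went from between 6.75 and 7.20 on d0 to between 9.52 and 10.95 on d6. The part of other cell types in the changes of the 10 genes was not tested.

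Over the 9 group means, the genes whose pattern was most like that of Krt8, the keratin with the largest F statistic over time summed over both lines, were Hook2 (Pearson r = 0.993), Kmt5c (0.993) and Etfbkmt (0.992). Those most like Dsp were Cdh1 (0.998), Tmc4 (0.998) and Hook2 (0.997), out of 11706 named genes. The low level of the primary SMC RNA is 1 of the 9 points behind each value.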

How the data were processed

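RNA of 24 arrays of 2 rMAPC lines (4 days, 3 replicates) and of 2 arrays of purchased SMC RNA was measured on 1-colour Agilent rat arrays, and groups follow the labels. The authors deposited scanner output of Agilent Feature Extraction 10.1.1.1, in which the processed signal is a background-subtracted intensity, and a series table of its log2 values, which the authors had not normalized between arrays. Here log2 of the processed signal of 43379 gene features was quantile-normalized over 26 arrays, after the study's methods. Outlier features (57 to 176 an array) were then left out, and features of 1 probe were averaged. Quantile normalization ranks features and gives every array the same set of values, with the same highest value. The number of arrays limits the precision.

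All arrays entered 1 fit of 9 group means (limma 3.58.1, R 4.3.3), without a block, with Benjamini-Hochberg adjustment over the 24442 tested probes and a threshold of 0.05. The fit was tested on simulated data. Fold changes are powers of 2 of log2 differences, and where no array of a group was well above background a fold is given as a bound ("at least"), or not given. Within a line, samples with the same replicate number shared a slide. Their deviations from the group means correlated above 0.1 for 16 of 18 pairs in Cl19 (lowest 0.061) and 18 of 18 in 3c3 (lowest 0.204), and for each of the 3 pairs of d0 and d6 in either line (lowest 0.108 and 0.287).

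The members, gene lists and motifs were chosen with earlier results of these data known. All 10 members were named, and from each related list up to 4 genes with the largest mean absolute d6 change among those past the threshold in at least 1 line. Alternatives were 75th percentile scaling, normexp background correction with an offset of 50, the authors' table, no filter, a floor, the mean over a gene's probes, the slide as a fixed or random block, a fit per line, the methods' t-test, and leaving out each array or the slide of 3c3 replicate 3. The study's area method was not run. Promoter windows came from RefSeq (GRCr8). Probe positions are those of the array's annotation (rn4).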

Additional observations from a re-analysis of the deposited data

Results flagged for a closer look

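For 4 genes the change from d0 differed between Cl19 and 3c3 by a test of the difference itself (limma, Benjamini-Hochberg adjustment). Krt19 rose less in Cl19, by −2.11 by d4 (adjusted p = 0.0071) and by −3.16 by d6 (adjusted p = 1.7e-04), and all 3 slides of either line showed a rise. Pkp2 rose more in Cl19 by d4, by 2.22 (adjusted p = 5.7e-04). Krt14 rose more in Cl19 by d6, by 3.04 (adjusted p = 0.0019), with a rise on 3 of 3 Cl19 slides and 0 of 3 3c3 slides. Krt5 rose more in Cl19 by d6, by 2.34 (adjusted p = 0.022), with a rise on 3 of 3 Cl19 slides and 1 of 3 3c3 slides. Dixon's test for a single outlying sample was not run, since it needs groups of 4 or more.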

How the results depend on the processing

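Of 620 alternative values for single genes, 584 kept their direction and side of the threshold, and 14 changed sign, all for differences not called in the main setting. Of these 14, 1 passed the threshold: Krt5 in the SMC RNA against 3c3 on d6, −1.36 in the authors' table (adjusted p = 0.037), also −0.53 with the floor and −0.19 to 0.90 over arrays left out. The others were the 3c3 d6 change of Krt5 (0.23 in the authors' table, 0.37 without the slide of 3c3 replicate 3, −0.56 to 0.22 over arrays left out) and Krt14 (0.23 in the authors' table, −0.52 to 0.10 over arrays left out), Krt14 in the SMC RNA against 3c3 (−0.99 in the authors' table) and the line difference of Dsp (−0.021 with 75th percentile scaling, −0.0063 in the authors' table, −0.016 over all probes, −0.08 without the slide, −0.18 to 0.24 over arrays left out). The members higher on d6, 10 in Cl19 and 8 in 3c3, were 10 and 8 with the replicate block, 8 and 7 with 75th percentile scaling, 9 and 8 in a fit per line and 9 and 7 with the methods' t-test. Without Cl19 d6 replicate 1 or 2 the Cl19 count was 9. Under the replicate block, in which the numbers pair the samples of a slide, 4 genes in place of 3 differed between the lines in the d6 change, with Krt8 added (adjusted p = 0.015). That count was 5 without the array Cl19 d2 replicate 1, 2 without the slide of 3c3 replicate 3, and 2 to 5 over all arrays left out in turn. The count of members whose d0 level differed, 1, became 0 with normexp background correction, with no filter on dim probes, with the slide as a random block and without the slide of 3c3 replicate 3, stayed 1 without Cl19 d2 replicate 1, and was 0 to 1 over arrays left out. The count higher in the SMC RNA than in 3c3 on d6, 0, became 1 (Krt14) with 75th percentile scaling and without the slide of 3c3 replicate 3, stayed 0 without Cl19 d2 replicate 1, and was 0 to 1 over arrays left out, 1 without Cl19 d6 replicate 1 or 2, Cl19 d2 replicate 2 or 3c3 d6 replicate 3. Krt19 in Cl19 on d6 did not pass in a fit per line (adjusted p = 0.065) or with the methods' t-test (0.12), nor Dsg2 in 3c3 with that test (0.055). The median d6 change over all tested probes was −0.23 and −0.22 with 75th percentile scaling, −0.06 and −0.06 with normexp, and 0.10 and 0.09 in the authors' table, in Cl19 and 3c3. By the methods' t-test 13365 and 11178 probes passed 0.05 unadjusted and 11279 and 8034 after Benjamini-Hochberg adjustment. The cause of these shifts was not tested. The area method was not run, so that its effect is unknown. Dim probes such as Krt5 are limited by their signal over background.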
